A study of Mus musculus with 12 samples.

Results

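The 10 genes described here encode the core of the classical end-joining machinery that seals switch-region breaks during antibody class switching: Xrcc5, Xrcc6, Prkdc, Dclre1c, Xrcc4, Lig4 and Nhej1, together with the break-signalling kinase gene Atm and the end-protection genes Trp53bp1 and Rif1. They were chosen by name, and each was read as the sum of the rows of the deposited transcript table that carry its symbol, 31 of 63759 transcripts and 10 of 32699 genes. RNA-seq libraries came from splenic B cells of mice with a wild-type (WT) or CHD4-knockout (KO) genotype. CHD4 is the ATP-dependent remodelling enzyme of the NuRD chromatin complex. The 4 groups of 3 libraries were WT and KO cells without stimulation (0 hr; replicates 1 to 3 and 4 to 6) and WT and KO cells after 48 hr with 10 µg/ml lipopolysaccharide (LPS) and 25 ng/ml interleukin 4 (IL-4; replicates 7 to 9 and 10 to 12). The Cre line or other means of deletion, the deleted part of Chd4, the animals' ages and sexes, and whether replicates came from separate animals are not given in the sources used here. P-values therefore reflect the scatter of these libraries alone, and that scatter may be technical.

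In a B cell that switches class, lesions in the switch regions become double-strand breaks. ATM signals from the breaks, 53BP1 (the product of Trp53bp1) and its partner RIF1 shield the ends from resection, and the Ku heterodimer binds the ends and recruits the kinase DNA-PKcs. The nuclease Artemis opens or trims ends that need it, and DNA ligase IV with XRCC4 and XLF joins the upstream and downstream switch regions, which loops out the DNA between them. LPS with IL-4 is a standard way to set off proliferation and switching to IgG1 in cultured mouse B cells.

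The libraries held 39 M to 53.2 M estimated counts each, and all 10 genes were among the 19125 genes tested. Levels are given as CPM, counts set relative to the scaled size of their library, so they are shares of a library's RNA and not amounts per cell. In bulk samples fewer cells of a type and less RNA per cell cannot be told apart. The summed level of 6 B cell marker genes was 6490 to 9040 CPM at 0 hr and 5290 to 6450 CPM at 48 hr, but its members diverged. Over time 1 of the 6 passed as higher and 3 as lower in each genotype (median log2 fold change -0.76 in WT and -0.79 in KO; with library totals none passed as higher and 5 as lower), with Ms4a1 at 1330 and 2460 CPM and Cd79a at 2530 and 899 CPM in WT at 0 and 48 hr. Summed monocyte and macrophage markers (6 genes) went from between 119 and 371 CPM at 0 hr to between 14.7 and 31.5 CPM at 48 hr, and erythroid markers (3 genes) from between 122 and 1580 CPM (at most 393 CPM in WT) to between 3.29 and 10.7 CPM. T cell markers (7 genes) summed to 57.9 to 118 CPM at 0 hr and 37.7 to 111 CPM at 48 hr, mostly Lck (43 and 36.6 CPM in WT, 73.3 and 86.4 CPM in KO). Of the 7, 6 passed as lower in WT and 5 in KO (median log2 fold change -2.84 and -3.43), with Cd3e at 1.28 and 0.0778 CPM and Cd4 at 6.56 and 0.322 CPM in WT. Dendritic cell markers (4 genes) went up in sum, from between 28.9 and 51.7 CPM at 0 hr to between 60.8 and 98.3 CPM at 48 hr. Of the 4, 1 passed as higher and 2 as lower in each genotype, and Flt3 was at 24.9 and 85.4 CPM in WT. NK cell markers (5 genes) summed to 9.72 to 23.3 CPM at 0 hr and 3.06 to 12.1 CPM at 48 hr. The tested neutrophil and platelet markers (3 genes each) all passed as lower in both genotypes. The part of these cells in the results was not tested. Chd4 itself was at 86.8 ± 16.5 (SD, n = 3) CPM in WT and 87.8 ± 15.3 CPM in KO before stimulation. After 48 hr the levels were 107 ± 14.3 CPM in WT and 54.9 ± 18.2 CPM in KO (log2 fold change -0.96, edgeR adjusted p = 0.038, lost in fits that left out single libraries, with adjusted p up to 0.16). On the principal component with 6.5% of the variance that separated genotypes, the KO libraries 6 (0 hr) and 12 (48 hr) were nearer to WT than the other KO libraries were. KO means a library labelled so, and Chd4 RNA did not separate the labels at 0 hr.

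The sequences upstream of 3 of these genes and of one neighbour are shown to give the context of the genes described most closely, and no measurement here bears on the sequences themselves. Xrcc6 and Xrcc5 encode the Ku subunits and had the largest changes of the 10 genes, and Atm and Npat are transcribed away from each other from one short stretch. Each run is the 250 bases that end at the RefSeq start (GRCm38.p6, 5′ to 3′ on the gene's strand). Capitals mark an E2F match in Xrcc6 and CCAAT matches on either strand in the others.
Xrcc6, chr15:82016119-82016368, plus strand: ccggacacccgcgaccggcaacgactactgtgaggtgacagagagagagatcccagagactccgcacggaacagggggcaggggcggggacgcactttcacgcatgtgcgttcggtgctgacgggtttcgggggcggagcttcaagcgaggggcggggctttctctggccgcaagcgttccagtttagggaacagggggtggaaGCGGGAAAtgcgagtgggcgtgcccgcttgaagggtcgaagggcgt
Xrcc5, chr1:72307171-72307420, plus strand: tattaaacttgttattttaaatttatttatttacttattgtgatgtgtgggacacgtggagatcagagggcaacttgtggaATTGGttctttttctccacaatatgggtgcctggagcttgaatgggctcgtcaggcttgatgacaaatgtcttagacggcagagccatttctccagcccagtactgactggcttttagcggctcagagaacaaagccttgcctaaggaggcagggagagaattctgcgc
Atm, chr9:53536672-53536921, minus strand: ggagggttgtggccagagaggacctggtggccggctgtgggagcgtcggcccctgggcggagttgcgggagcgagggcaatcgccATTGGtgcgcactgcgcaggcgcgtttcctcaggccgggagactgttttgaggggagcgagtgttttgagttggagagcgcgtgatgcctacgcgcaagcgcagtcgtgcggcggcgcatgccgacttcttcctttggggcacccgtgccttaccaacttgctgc
Npat, chr9:53536797-53537046, plus strand: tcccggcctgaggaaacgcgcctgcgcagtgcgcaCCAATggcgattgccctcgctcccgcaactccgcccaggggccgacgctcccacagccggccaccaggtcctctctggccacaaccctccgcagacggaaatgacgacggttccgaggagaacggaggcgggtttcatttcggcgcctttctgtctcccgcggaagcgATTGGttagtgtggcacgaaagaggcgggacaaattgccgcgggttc

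The comparison of 48 hr with 0 hr asks how the levels of these genes stand in B cells activated towards switching. In WT cells 5 of the 10 genes were higher (Rif1, Xrcc4, Xrcc5, Xrcc6 and Atm) and 2 were lower (Lig4 and Prkdc) at an adjusted p below 0.05 in edgeR. In KO cells 7 were higher (the same 5 with Trp53bp1 and Nhej1) and the same 2 were lower. Most of the transcriptome moved as well. In WT 73.9% of all tested genes passed in either direction, 33.0% as higher and 40.9% as lower, and in KO 70.7% passed, 33.0% as higher and 37.7% as lower. The number of these 10 genes that changed was thus near the background, and their split between higher and lower is described gene by gene. Their median log2 fold change was 0.72 in WT and 0.94 in KO, beside -0.39 and -0.30 over all tested genes.

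**Figure D1:**
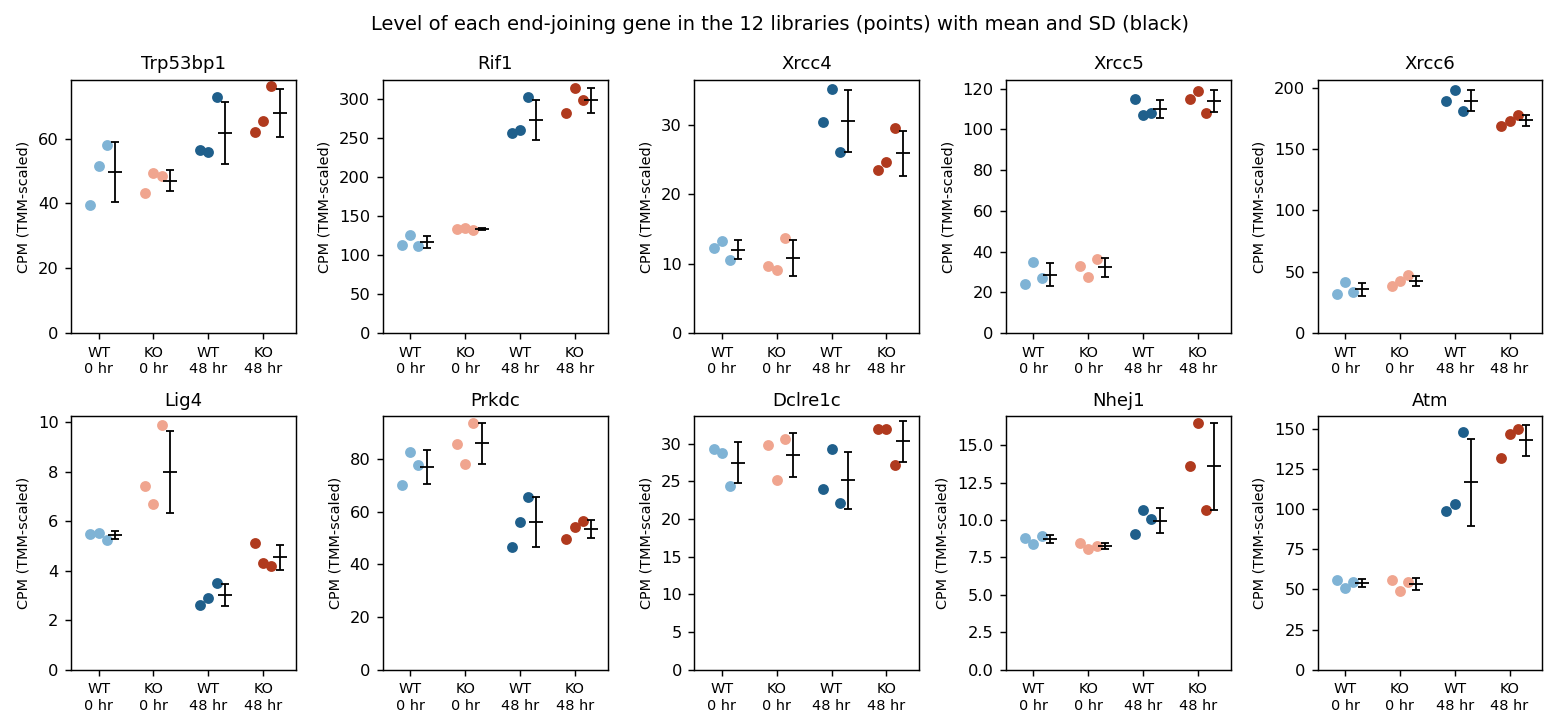
Level of each of the 10 genes in the 12 libraries, in CPM on linear axes that start at 0; points are libraries, and black marks are the group mean with its SD (n = 3). Xrcc5, Xrcc6, Xrcc4, Rif1 and Atm lie higher in all 48 hr libraries than in any 0 hr library, and Lig4 and Prkdc lie lower at 48 hr than at 0 hr within each genotype.

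The Ku genes rose most. Xrcc6 (chromosome 15, 81987835 to 82040085 in mm10, a GENCODE span that begins upstream of the coding transcript start at 82016369, which is also the RefSeq start) encodes Ku70, and was at 31.7, 41.6 and 33.3 CPM in WT and 38.5, 42.3 and 46.9 CPM in KO before stimulation, and at 189, 198 and 181 CPM in WT and 169, 173 and 178 CPM in KO after 48 hr. Every 48 hr library was above every 0 hr library. The fold change was 5.32 in WT (log2 2.41, SE 0.12, adjusted p = 6.8e-10) and 4.06 in KO (log2 2.02, SE 0.12, adjusted p = 3.4e-09). Xrcc5 (chromosome 1, 72307421 to 72394952) encodes Ku80, the other subunit, and was at 24.0, 35.0 and 26.8 CPM in WT and 32.9, 27.4 and 36.5 CPM in KO before stimulation, and at 115, 107 and 108 CPM in WT and 115, 119 and 108 CPM in KO after 48 hr. The groups again did not overlap over time, and the fold change was 3.84 in WT (log2 1.94, SE 0.14, adjusted p = 3.2e-08) and 3.53 in KO (log2 1.82, SE 0.14, adjusted p = 6.4e-08). In WT, 93.0% of all tested genes had a lower log2 fold change than Xrcc6, and 88.9% a lower one than Xrcc5.

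The kinase that Ku recruits moved the other way. Prkdc (chromosome 16, 15637866 to 15842235) encodes DNA-PKcs, and was at 69.9, 82.7 and 77.6 CPM in WT and 85.6, 78.1 and 93.7 CPM in KO before stimulation, and at 46.4, 56.1 and 65.6 CPM in WT and 49.7, 54.2 and 56.5 CPM in KO after 48 hr. The lowest unstimulated library was above the highest stimulated one. Prkdc fell by 0.45 on the log2 scale in WT (SE 0.13, adjusted p = 0.0063) and by 0.68 in KO (SE 0.13, adjusted p = 0.00036). Its change in WT was close to that of the median gene, with 48.9% of tested genes below it. Dclre1c (chromosome 2, 3424131 to 3464130), which encodes the nuclease Artemis, was at 29.3, 28.8 and 24.4 CPM in WT and 29.8, 25.2 and 30.6 CPM in KO before stimulation, and at 24.0, 29.3 and 22.1 CPM in WT and 31.9, 31.9 and 27.2 CPM in KO after 48 hr. All 4 groups overlapped, and neither change over time passed the test (log2 fold change -0.13, 95% interval -0.43 to 0.17 in WT, and 0.09, interval -0.21 to 0.39 in KO).

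The ligase complex split. Xrcc4 (chromosome 13, 89774027 to 90089608), the scaffold that binds and stabilises DNA ligase IV, was at 12.3, 13.2 and 10.5 CPM in WT and 9.59, 9.01 and 13.7 CPM in KO before stimulation, and at 30.3, 35.1 and 26.1 CPM in WT and 23.4, 24.6 and 29.5 CPM in KO after 48 hr. It rose 2.54-fold in WT (log2 1.34, SE 0.18, adjusted p = 1.8e-05) and 2.40-fold in KO (log2 1.26, SE 0.18, adjusted p = 3.4e-05), with no overlap over time. Lig4 (chromosome 8, 9969049 to 9977686), the ligase itself, was at 5.51, 5.55 and 5.25 CPM in WT and 7.44, 6.69 and 9.88 CPM in KO before stimulation, and at 2.63, 2.92 and 3.50 CPM in WT and 5.12, 4.33 and 4.20 CPM in KO after 48 hr. Within each genotype the unstimulated libraries were all higher. Lig4 fell by 0.85 in WT (SE 0.21, adjusted p = 0.0026) and by 0.81 in KO (SE 0.21, adjusted p = 0.0033) on the log2 scale. It also had the fewest estimated counts of the 10 genes in every library but KO 0 hr replicate 6. Its 102 to 672 counts per library limit its precision. Nhej1 (chromosome 1, 74967139 to 75125200), which encodes the bridging factor XLF, was at 8.81, 8.42 and 8.93 CPM in WT and 8.49, 8.06 and 8.29 CPM in KO before stimulation, and at 9.06, 10.7 and 10.1 CPM in WT and 13.6, 16.5 and 10.7 CPM in KO after 48 hr. The 2 highest libraries were both KO 48 hr. Nhej1 rose in KO (log2 fold change 0.72, SE 0.17, adjusted p = 0.0021) and did not pass in WT (0.19, 95% interval -0.18 to 0.56, adjusted p = 0.32). The difference between those changes was 0.53 (SE 0.24, adjusted p = 0.58) and did not pass either.

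Of the genes that act before the ends are joined, Rif1 and Atm rose in both genotypes. Rif1 (chromosome 2, 52072832 to 52122383) was at 113, 126 and 111 CPM in WT and 133, 135 and 132 CPM in KO before stimulation, and at 256, 260 and 302 CPM in WT and 282, 314 and 298 CPM in KO after 48 hr. All 48 hr libraries were above all 0 hr libraries, with log2 fold changes of 1.22 in WT (SE 0.10, adjusted p = 9.3e-08) and 1.16 in KO (SE 0.10, adjusted p = 1.7e-07). Atm (chromosome 9, 53439149 to 53536740) was at 56.0, 51.2 and 54.4 CPM in WT and 56.1, 48.9 and 54.9 CPM in KO before stimulation, and at 99.0, 103 and 148 CPM in WT and 132, 147 and 150 CPM in KO after 48 hr. The unstimulated libraries lay close together, and WT 48 hr replicate 9 stood well above the other two of its group. Atm rose by a log2 fold change of 1.12 in WT (SE 0.14, adjusted p = 8.1e-06) and 1.42 in KO (SE 0.14, adjusted p = 7.6e-07). Trp53bp1 (chromosome 2, 121193281 to 121271407) was at 39.6, 51.5 and 57.9 CPM in WT and 43.2, 49.4 and 48.5 CPM in KO before stimulation, and at 56.5, 55.7 and 72.9 CPM in WT and 62.1, 65.3 and 76.3 CPM in KO after 48 hr. The WT groups overlapped and the KO groups did not. Trp53bp1 rose in KO (log2 fold change 0.53, SE 0.15, adjusted p = 0.0068), and in WT its value was 0.31 (SE 0.15, adjusted p = 0.075). The difference between those changes was 0.21 (SE 0.21, adjusted p = 0.84 in edgeR) and did not pass. Leaving out WT 0 hr replicate 3 gave a WT value of 0.44, which passed (adjusted p = 0.03).

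How libraries are scaled sets the direction of some of these changes. The trimmed mean of M values (TMM) gave factors of 1.28 to 1.42 to the 0 hr libraries and 0.723 to 0.766 to the 48 hr libraries. With upper-quartile scaling the median log2 fold change over all genes in WT was -1.06, and with plain library totals it was -1.28, in place of -0.39. Of all calls in WT, 44.6% were higher with TMM, 27.6% with upper-quartile scaling and 23.2% with library totals, and in KO the shares were 46.7%, 28.8% and 24.4%. Under all 4 scalings Xrcc5, Xrcc6, Xrcc4 and Rif1 rose and Lig4 and Prkdc fell, in both genotypes. With library totals Xrcc6 was at 1.53 and Xrcc4 at 0.45 on the log2 scale in WT, against 2.41 and 1.34 with TMM. Atm did not pass in WT with library totals (0.23, adjusted p = 0.16). Trp53bp1 turned to -0.36 and -0.58 in WT and to -0.10 and -0.29 in KO with upper-quartile scaling and library totals, and Nhej1 to -0.49 and -0.70 in WT and to 0.09 and -0.10 in KO. These WT values passed as lower in edgeR (adjusted p = 0.031 and 0.0044 for Trp53bp1, 0.027 and 0.0024 for Nhej1), and the KO values did not pass. With relative log expression scaling Trp53bp1 passed as higher in WT (0.41, edgeR adjusted p = 0.023), so its call ran in both directions. Dclre1c passed as lower with upper-quartile scaling and with library totals, at -0.80 and -1.02 in WT and -0.54 and -0.72 in KO. A change of scaling moves all genes by nearly the same amount, so by construction the distance from the median gene hardly depended on it. In WT it was 2.80 for Xrcc6, 2.33 for Xrcc5, 1.73 for Xrcc4, 1.61 for Rif1, 1.51 for Atm, 0.70 for Trp53bp1, 0.58 for Nhej1, 0.26 for Dclre1c, -0.06 for Prkdc and -0.46 for Lig4 on the log2 scale with TMM.

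**Figure D2:**
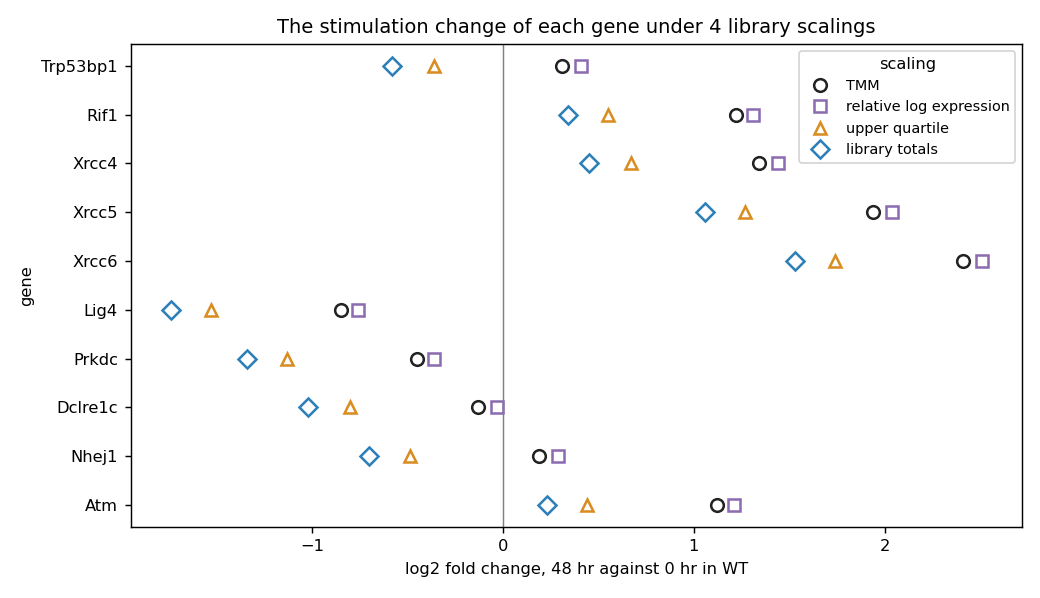
Log2 fold change of each gene at 48 hr against 0 hr in WT (x axis) under 4 library scalings (marker shapes). The order of the genes is the same in each scaling by construction, since a scaling moves all genes by nearly the same amount. Trp53bp1 and Nhej1 lie right of 0 with TMM and left of 0 with library totals.

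A ratio of the counts of 2 genes within a library is free of that scaling. These pairs were chosen after the values were seen, and each ratio is a description with no test. The ratio of Xrcc4 to Lig4 counts was 2.24, 2.37 and 2.01 in WT 0 hr, 1.29, 1.35 and 1.39 in KO 0 hr, 11.5, 12.0 and 7.45 in WT 48 hr, and 4.56, 5.70 and 7.03 in KO 48 hr. The mean ratio was 4.66-fold higher at 48 hr in WT and 4.30-fold higher in KO, and at each time all KO libraries lay below all WT libraries. For Xrcc6 to Prkdc the ratio ran from 0.429 to 0.542 over the 6 unstimulated libraries and from 2.76 to 4.07 over the 6 stimulated ones. For the Ku pair, Xrcc6 to Xrcc5, it ran from 1.19 to 1.32 in WT 0 hr and 1.64 to 1.85 in WT 48 hr, while the KO ranges overlapped over time (1.17 to 1.54 and 1.45 to 1.65). The ratio of Rif1 to Trp53bp1 went from between 1.92 and 3.08 at 0 hr to between 3.91 and 4.82 at 48 hr.

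**Figure D3:**
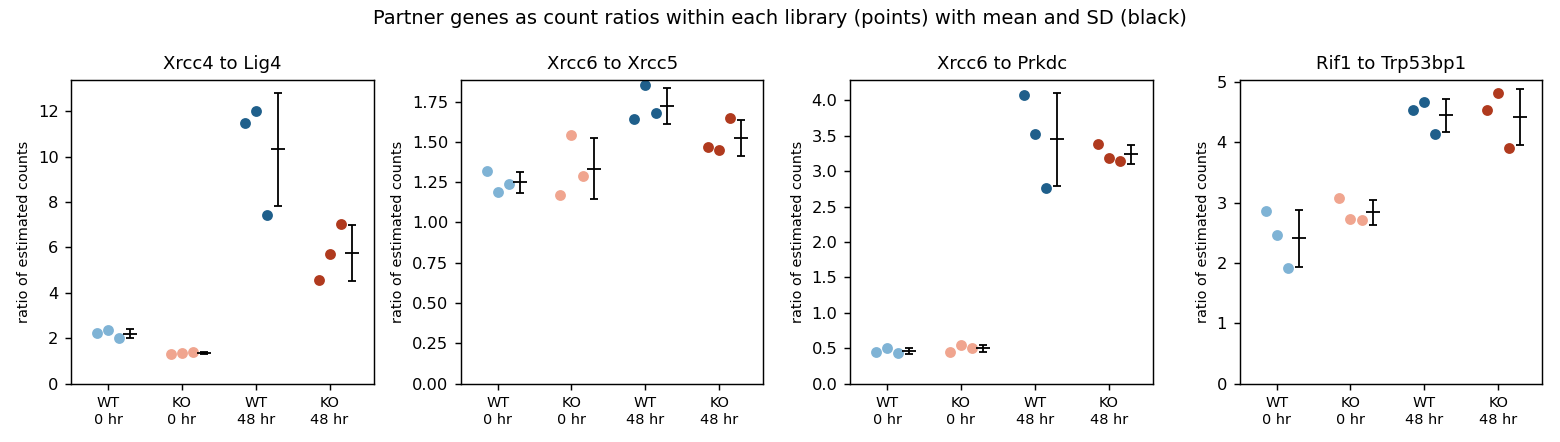
Ratio of estimated counts of 2 partner genes within each library (points; y axes start at 0), with the group mean and SD in black (n = 3). The ratio of Xrcc4 to Lig4 lies at 1.29 to 2.37 in the 0 hr libraries and 4.56 to 12.0 in the 48 hr libraries, and lower in KO than in WT at both times.

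The comparison of KO with WT asks whether the end-joining genes differ in B cells labelled as lacking CHD4. None of the 10 passed at 0 hr or at 48 hr in edgeR, where 1.11% and 2.02% of all tested genes passed, and none passed with limma-voom, DESeq2 or edgeR's likelihood ratio test. At an unadjusted p below 0.05 there were 2 genes at 0 hr (Xrcc6 and Lig4) and 2 at 48 hr (Lig4 and Nhej1), beside 10.7% and 14.4% of all tested genes. The median log2 fold change of the 10 was 0.11 at 0 hr and 0.13 at 48 hr, beside -0.001 and 0.007 over all tested genes. For the test of whether the genotype effect changed with stimulation (the interaction), 0 of 10 passed, with 2 at an unadjusted p below 0.05 (Xrcc6 and Nhej1) and 0 by the other tools. In that test 0.115% of all genes passed, and 8.61% had an unadjusted p below 0.05.

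Lig4 had the largest genotype difference of the 10 at both times. KO libraries held 6.69 to 9.88 CPM against 5.25 to 5.55 CPM in WT at 0 hr, and 4.20 to 5.12 CPM against 2.63 to 3.50 CPM at 48 hr. Every KO library was above every WT library of its time. The log2 fold change was 0.56 at 0 hr (SE 0.21, 95% interval 0.11 to 1.00, adjusted p = 0.31) and 0.59 at 48 hr (SE 0.21, interval 0.14 to 1.05, adjusted p = 0.19). Over the alternatives it stayed between 0.38 and 0.67 at 0 hr (adjusted p 0.078 to 0.65) and between 0.46 and 0.65 at 48 hr (adjusted p 0.11 to 0.49). Without the 2 KO libraries nearer to WT it was 0.38 and 0.65. Nhej1 at 48 hr did not overlap between genotypes, but only by a margin lost in rounding, with KO replicate 12 and WT replicate 8 both at 10.7 CPM. Its log2 fold change was 0.45 at 48 hr (SE 0.17, interval 0.08 to 0.82, adjusted p = 0.22) and -0.07 at 0 hr (interval -0.44 to 0.29). Single libraries moved the 48 hr value between 0.24 (KO 48 hr replicate 11 left out) and 0.60 (replicate 12 of that group left out), and its adjusted p ran from 0.052 to 0.7 over the alternatives. Groups that did not overlap were also seen for Rif1 at 0 hr (0.19, interval -0.02 to 0.40) and for Xrcc6 at 48 hr (-0.13, interval -0.37 to 0.12). In all, 2 of 10 genes at 0 hr and 3 of 10 at 48 hr (with the near tie of Nhej1 counted) had groups that did not overlap, beside 14.9% and 20.2% of all tested genes.

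For the other genes the intervals bound what these libraries could show. At 48 hr they ran from -0.19 to 0.46 for Trp53bp1, -0.08 to 0.34 for Rif1, -0.63 to 0.15 for Xrcc4, -0.24 to 0.35 for Xrcc5, -0.35 to 0.21 for Prkdc, -0.03 to 0.58 for Dclre1c and -0.01 to 0.59 for Atm on the log2 scale. A 2-fold difference, a log2 value of 1, lay outside every interval but that of Lig4 (upper bound 1.05). At 0 hr the widest of the remaining intervals was that of Xrcc4, -0.55 to 0.24. Replicates scattered more in KO, with a biological coefficient of variation (edgeR) of 31.2% at 0 hr and 23.9% at 48 hr, than in WT, with 17.6% and 14.3%. The intervals come from 1 fit that pools the scatter of all 4 groups, so they do not allow for this difference. Sex-linked RNA moved with genotype, with Xist at 259 and 78.7 CPM in WT (0 and 48 hr) against 1.57 and 0.94 CPM in KO, and the Y-linked Ddx3y at 26.0 and 21.4 CPM against 120 and 117 CPM. Genotype and this difference cannot be told apart here.

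**Figure D4:**
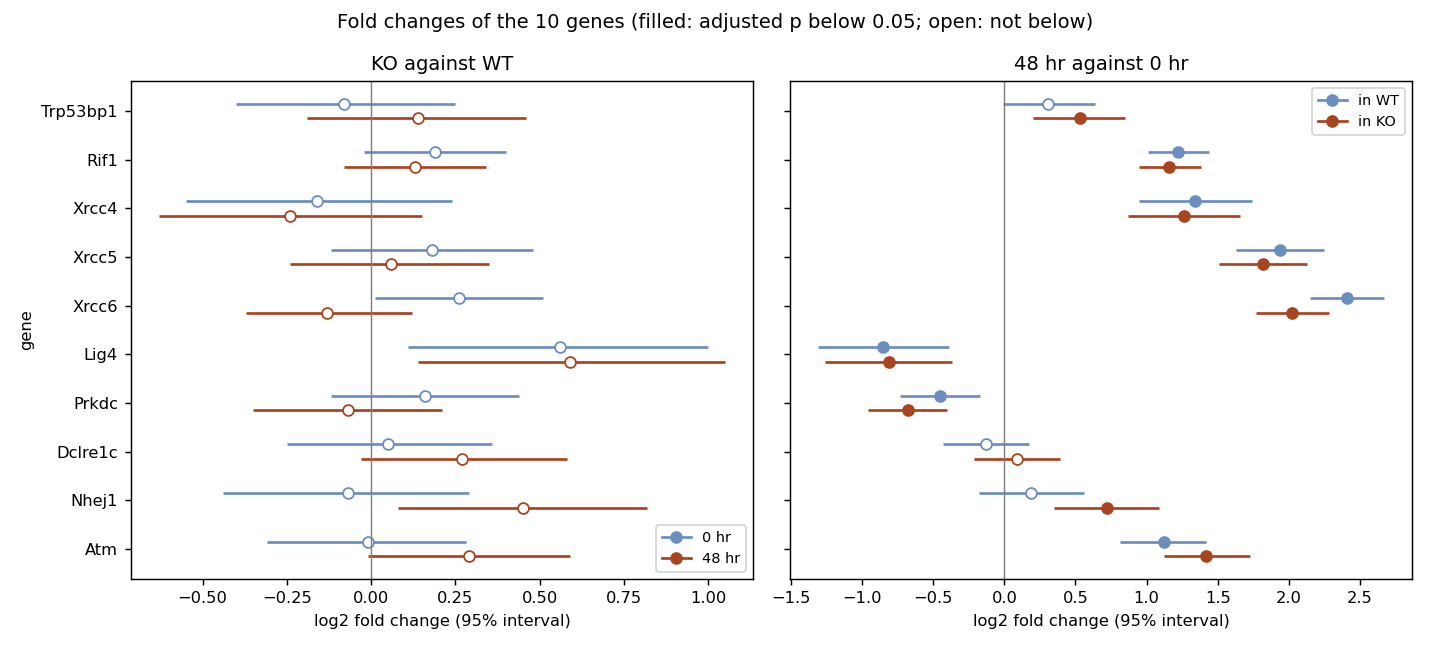
Log2 fold change (x axis) of the 10 genes with its 95% interval, for KO against WT (left, at 0 and 48 hr) and 48 hr against 0 hr (right, in WT and KO); filled points have an adjusted p below 0.05. No point is filled on the left, where Lig4 lies at 0.56 and 0.59, and on the right the values run from -0.85 for Lig4 to 2.41 for Xrcc6, both in WT.

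To rank the levels of different genes, they were taken per kilobase of the longest coding transcript, an approximation. The count ratios above carry no such correction for length. In WT 0 hr the order of the level in CPM per kilobase was Rif1 (13.8), Xrcc5 (11.2), Xrcc6 (10.8), Nhej1 (8.28), Xrcc4 (7.81), Prkdc (6.07), Atm (5.48), Trp53bp1 (5.16), Dclre1c (3.89) and Lig4 (1.08). The libraries of neighbours in this order overlapped, except between Xrcc6 and Nhej1, Xrcc4 and Prkdc, and Dclre1c and Lig4. In WT 48 hr the order was Xrcc6 (57.4), Xrcc5 (42.9), Rif1 (32.1), Xrcc4 (19.8), Atm (11.9), Nhej1 (9.45), Trp53bp1 (6.41), Prkdc (4.43), Dclre1c (3.55) and Lig4 (0.60). There the only neighbours that overlapped were Atm with Nhej1 and Prkdc with Dclre1c. The Ku genes thus led the 10 after stimulation and Lig4 was last at both times. In KO the first 3 places were Rif1 (15.7), Xrcc6 (12.9) and Xrcc5 (12.6) at 0 hr and Xrcc6 (52.5), Xrcc5 (44.6) and Rif1 (35.0) at 48 hr.

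Of the 10 genes 5 (50.0%) start within 1000 bases of a coding gene that runs the opposite way, beside 9.86% of 21842 coding genes of GENCODE M21. In GENCODE Atm starts 307 bases from Npat, a co-activator of histone gene transcription, and Npat went from 37.6 ± 11.1 to 139 ± 15 CPM in WT (log2 fold change 1.88, SE 0.21) and by 2.02 (SE 0.21) in KO, so both genes of the pair rose (Atm 1.12 and 1.42). The 250-base windows printed above end at RefSeq starts that lie 376 bases apart, and share 125 bases, including one CCAAT match. Xrcc4 starts 41 bases from Tmem167 (1.99 in WT and 1.84 in KO, both passing), and Xrcc6 starts 144 bases from Desi1 (1.05 and 1.16, both passing, though Desi1 was at 0.16, adjusted p = 0.24, in WT with library totals). Prkdc starts 489 bases from Mcm4, a subunit of the replicative helicase. Mcm4 rose from 79.2 ± 18.7 to 616 ± 38.4 CPM in WT (log2 fold change 2.96, SE 0.18) and by 3.17 (SE 0.18) in KO while Prkdc fell, and the ratio of Mcm4 to Prkdc counts went from between 0.60 and 1.22 at 0 hr to between 10.0 and 13 at 48 hr. Lig4 starts 21 bases from Abhd13, which was at 0.16 (adjusted p = 0.37) in WT and 0.34 (adjusted p = 0.068) in KO. Abhd13 turned negative with upper-quartile scaling and library totals.

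**Figure D5:**
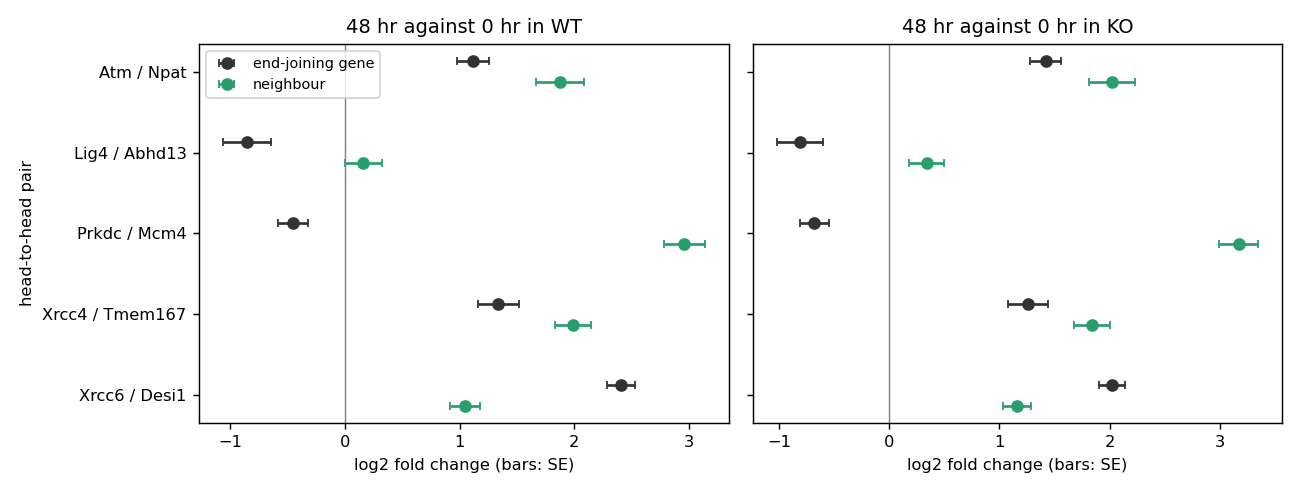
Log2 fold change at 48 hr against 0 hr (x axis, bars are SE) of each end-joining gene (dark) and of the coding gene that starts nearby in the opposite direction (green), in WT (left) and KO (right). Mcm4 lies at 2.96 and 3.17 while Prkdc lies at -0.45 and -0.68.

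RefSeq promoter windows of 300 bases (250 before and 50 after the start) were matched for 8 of the 10 genes, all but Rif1 and Prkdc. An E2F match, one of TTTCCCGC, TTTGGCGC, TTTCGCGC and TTTGCCGC on either strand, was found in 1 of the 8, Xrcc6, 46 bases before its start, and in 2.26% of 32851 windows of all genes. CCAAT was found on either strand in 4 of 8 (Xrcc5, Xrcc6, Atm and Dclre1c) and in 37.4% of all windows. The GC box GGGCGG was in 7 of 8, all but Xrcc5, and in 35.7% of all windows, and the E-box CACGTG was in Xrcc5 and in 7.15% of all. The cyclic AMP response element TGACGTCA was in none of the 8 and in 1.79% of all. The 32851 windows outnumber the 21842 coding genes of GENCODE M21 and were not limited to genes like these 8. The motifs are matches of letters and not measured sites.

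The transcript rows were compared for the 7 genes that have at least 2 of them. The share of a gene's counts on its leading transcript was compared between the 6 libraries at 0 hr and the 6 at 48 hr by an exact two-sided permutation test, whose smallest p is 0.00216. The test took WT and KO together and did not keep the permuted labels within a genotype. The leading share changed in 2 of 7 genes. Xrcc6's leading transcript held 94.0% ± 1.56 (SD, n = 6) of its counts at 0 hr and 98.5% ± 0.361 at 48 hr (adjusted p = 0.0152 in the exact test, over 7 genes). In WT the mean went from 94.5% to 98.5%, and in KO from 93.6% to 98.5%. Atm's leading transcript held 77.3% ± 13.6 and 89.1% ± 1.54 (adjusted p = 0.0227 in the exact test), with KO 0 hr libraries spread from 50.2% to 87.8%. Its mean went from 82.0% to 88.6% in WT and from 72.6% to 89.7% in KO. The Atm difference of 11.8 points became 6.37 points without KO 0 hr replicate 4, and ran from 6.37 to 13.9 points over the fits that left out 1 library. The Atm call was lost, with adjusted p up to 0.0758 in the exact test, when WT 48 hr replicate 9 or any KO 48 hr replicate was left out. The leading Trp53bp1 transcript held 50.1% and 49.4%. Among its other transcripts, named after their values were seen, uc008lyh.3 went from 13.2% ± 3.32 of the gene's counts in WT 0 hr to 3.70% ± 0.848 in WT 48 hr, and from 9.80% ± 1.58 to 2.02% ± 0.488 in KO. It fell by 1.45 on the log2 scale in WT (adjusted p = 0.0021) and by 1.71 in KO (adjusted p = 0.00084) in the edgeR fit of single transcripts. Trp53bp1 transcripts uc008lyc.1 and uc008lyg.3 rose in the same fit, by log2 values of 0.77 and 0.74 in WT and 0.84 and 0.75 in KO. Neither passed with upper-quartile scaling or library totals (with totals -0.15 and -0.18 in WT, and 0.02 and -0.07 in KO), while uc008lyh.3 passed as lower under all 4 scalings. The Trp53bp1 transcript uc008lyf.1 was at -2.17 in WT (adjusted p = 0.13) and -1.17 in KO (adjusted p = 0.4), and passed in WT with library totals (-3.14, adjusted p = 0.033). Counts shared among overlapping transcripts are estimates, so these shares carry an error that the replicates may not show.

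Genes of neighbouring pathways, and 14 proliferation genes, were read from lists drawn up for this purpose with earlier results of these data known. Over time 77 of their 86 tested genes (89.5%) passed in WT and 81 (94.2%) in KO, beside 73.9% and 70.7% of all tested genes. Given how the lists were chosen, these shares are a description and no test of the pathways. As higher, 33.0% of all tested genes passed in each genotype. With library totals 18.8% of all tested genes passed as higher and 62.4% as lower in WT, and 19.1% and 59.3% in KO. Of 20 tested genes of the 53BP1 axis and break signalling, 18 rose and 1 fell over time in WT and 17 rose and 1 fell in KO, with library totals giving 10 and 5 in WT and 9 and 8 in KO. Nbn, part of the MRN break sensor, rose most (log2 fold change 2.80 in WT and 2.56 in KO), followed by Paxip1 (2.10 and 2.17), which encodes PTIP, and the histone variant gene H2afx (2.01 and 2.10). Of 11 tested accessory end-joining factors 5 rose and 1 fell in WT and 7 rose and 3 fell in KO, but with library totals 5 rose and 6 fell in WT and 4 rose and 6 fell in KO. Ercc6l2, which encodes a helicase-like end-joining factor, rose by a log2 fold change of 3.88 in WT and 3.62 in KO. Of 9 alternative end-joining genes 7 rose and 1 fell in WT and 8 rose and 1 fell in KO (5 and 2 in WT and 5 and 1 in KO with library totals). Lig1, the replicative ligase, rose from 19.5 ± 1.92 to 235 ± 13.7 CPM in WT (log2 3.59) while Lig4 fell, and the abasic-site protein gene Hmces fell by 3.54 in WT and by 2.68 in KO. Of 20 homologous recombination genes 18 rose and none fell in each genotype (15 rose and 3 fell in WT with library totals), among them Exo1 (4.6 in WT). All 10 switch initiation genes rose in each genotype with TMM (7 of 10 with library totals). Both V(D)J recombinase genes, Rag1 and Rag2, fell, at very low summed levels of 1.3 to 2.68 CPM at 0 hr and 0.386 to 0.648 CPM at 48 hr. All 14 proliferation genes rose, with a summed level of 465 to 653 CPM at 0 hr and 8310 to 8600 CPM at 48 hr. The part of proliferation in the changes of the 10 end-joining genes was not tested.

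Between genotypes none of the 86 tested genes of these 7 lists passed at 0 hr, and 3 (3.49%) passed at 48 hr, beside 2.02% of all tested genes. With upper-quartile scaling and with library totals Batf also passed as lower in KO at 0 hr (log2 fold change -0.55 and -0.56, adjusted p = 0.035 and 0.027). The shieldin subunit gene Shld1, which acts downstream of 53BP1 and RIF1 and is listed as 1110034G24Rik, was at 10.9 ± 0.712 CPM in WT and 5.15 ± 1.08 CPM in KO at 48 hr (log2 fold change -1.08, SE 0.22, adjusted p = 0.023). Leaving out any WT 48 hr library (7, 8, 9), or KO 48 hr library 10 or 11, ended that call (adjusted p 0.053 to 0.11). Hmces was at 3.23 ± 0.563 CPM in WT and 5.81 ± 0.733 CPM in KO (log2 fold change 0.85, SE 0.18, adjusted p = 0.031), and lost its call without any 1 of the WT libraries of either time or KO 48 hr library 10 or 11 (up to 0.15) and with limma-voom (0.17). Batf, a transcription factor needed for class switching, was at 387 ± 29.5 CPM in WT and 230 ± 21.6 CPM in KO (log2 fold change -0.75, SE 0.12, adjusted p = 0.0066), and kept its call in every alternative (adjusted p up to 0.046). The proliferation marker Mki67 was at 221 ± 29.1 CPM in WT and 336 ± 23.9 CPM in KO at 48 hr (adjusted p = 0.07).

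As a description, the 5 tested genes whose log2 CPM followed the mean of the 10 genes' standardised levels most closely over the 12 libraries were Zfp599 (Pearson r = 0.975), Riok3 (0.966), Stag1 (0.964), Atp6ap2 (0.963) and Zfp143 (0.963). That mean mixes genes with unlike profiles. Over the libraries the correlation with Xrcc6 was -0.76 for Lig4, -0.85 for Prkdc and -0.06 for Dclre1c, and 0.69 to 0.99 for the others. The libraries share one difference between 0 and 48 hr, and its part in these correlations was not tested.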

How the data were processed

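RNA from 12 libraries of mouse splenic B cells was made into cDNA with a SMART-Seq kit and sequenced as paired 50-base reads, per the labels' protocols. The kit does not record strand. The values analysed are estimated counts per transcript, in whole numbers as deposited by the authors, who used bcl2fastq 2.20.0.422, Trimmomatic 0.36, Salmon 0.8.2 and DESeq2 1.14.1 with mm10, per the submitters' processing notes. Salmon shares reads among similar transcripts.

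Counts of 63759 transcripts were summed to 32699 symbols (344 names trimmed of spaces). After filterByExpr 19125 genes remained, libraries were scaled by TMM, and all 4 groups were fitted together in edgeR 4.0.16 (R 4.3.3; quasi-likelihood F test, robust, 8 residual degrees of freedom), with Benjamini-Hochberg adjustment over all genes and a threshold of 0.05. Alternatives were DESeq2 1.42.0, limma-voom (limma 3.58.1), the likelihood ratio test, other scalings and filters, separate fits, single transcripts and leaving out libraries. Scaling by library totals, and other scalings of single transcripts and list genes, were added after seeing the data. The test was checked on simulated counts with 200 genes changed per contrast and a dispersion per gene shared by all groups. That check does not cover a shift of most genes or unequal scatter between groups. Transcript IDs carry no biotype, so the planned share of protein-coding transcripts became the share of the leading transcript. Positions and lengths are from GENCODE M21, promoters from RefSeq GRCm38.p6. Figures were drawn with matplotlib 3.10.9.

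The 10 genes and all lists were chosen with earlier results of these data known. Genes outside the 10 were named by rule: Chd4, Mki67, Xist, Ddx3y, opposite-strand neighbours within 1000 bases, up to 4 called genes with the largest change per list and contrast, and the 5 most alike. Shld3, Paxx and 2 erythroid genes of the lists were not matched by symbol. Some genes that this rule would name are not reported here.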

Additional observations from a re-analysis of the deposited data

How the results depend on the processing

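In all alternatives run, 0 of the 10 genes passed between genotypes at 0 hr, at 48 hr or in the interaction, and 7 to 10 passed over time in WT and 8 or 9 in KO. Most tested genes passed over time as well, 73.9% in WT and 70.7% in KO with TMM. With upper-quartile scaling all 10 passed in WT, where 21.9% of all tested genes passed as higher and 57.2% as lower. In KO these shares were 22.1% and 54.8%. The counts over time are thus not particular to these genes. Scaling sets the direction of small changes over time. With upper-quartile scaling Trp53bp1 was at -0.36 in WT and -0.10 in KO, Nhej1 at -0.49 in WT, Dclre1c at -0.54 in KO and Abhd13 at -0.51 in WT and -0.28 in KO. With library totals these values were -0.58, -0.29, -0.70, -0.72, -0.72 and -0.47, and Nhej1 in KO was at -0.10. With at least 1 CPM in 3 libraries Dclre1c in KO was at -0.09. The cause of these turns was not tested beyond the shift of the median gene.

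Values near 0 also changed sign. Between genotypes at 0 hr, Trp53bp1 was at 0.05 and Dclre1c at -0.03 without WT 0 hr replicate 3, and Atm at 0.01 without WT 0 hr replicate 1 and 0.04 without KO 0 hr replicate 5. Chd4 at 0 hr was at -0.02 with upper-quartile scaling, -0.03 with library totals, -0.13 without WT 0 hr replicate 2, and -0.08 and -0.02 without KO 0 hr replicates 4 and 6. At 48 hr Xrcc5 was at -0.02 without WT 48 hr replicate 9 and -0.03 without KO 48 hr replicate 11. Without KO 0 hr replicate 6 and KO 48 hr replicate 12 together, Chd4 at 0 hr was at -0.02, and the interaction of Xrcc4 at 0.03 and of Xrcc5 at 0.02. Over all fits that left out 1 library, the ranges were -0.22 to 0.05 for Trp53bp1, -0.03 to 0.14 for Dclre1c, -0.05 to 0.04 for Atm and -0.13 to 0.15 for Chd4 at 0 hr, -0.03 to 0.09 for Xrcc5 at 48 hr, and -0.24 to 0.13 for Xrcc4 and -0.10 to 0.22 for Lig4 in the interaction. The interaction of Rif1 was 0.01 with library totals, and that of Xrcc4 0.01 without WT 0 hr replicate 3 and 0.13 without KO 0 hr replicate 6. That of Lig4 was -0.01 with relative log expression scaling, -0.02 with DESeq2, -0.02 and -0.08 without KO 0 hr replicates 4 and 5, -0.10 and -0.02 without WT 48 hr replicates 7 and 8, and -0.06 without KO 48 hr replicate 10.

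The number of genes whose leading transcript share changed ran from 1 to 4 when single libraries were left out (2 of 7 with all). The share difference (48 hr minus 0 hr) of Trp53bp1 was 0.943, 0.583 and 0.522 points without KO 0 hr replicate 4 and WT 48 hr replicates 7 and 9, and that of Prkdc -0.174 and -0.548 points without KO 48 hr replicates 10 and 11, within ranges of -2.2 to 0.943 and -0.548 to 1.39. The share per transcript length was not run, since the transcripts' lengths were not used here. No paired analysis was possible because the groups share no replicate numbers. Depth limits Lig4 most, at 102 counts in its lowest library.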
